A study of Aconitum carmichaelii with 4 samples.

Results

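The flower-dominant unigenes of Aconitum carmichaelii, a medicinal herb of the buttercup family, were chosen by their measured values: an assembled sequence over 500 bases long, with at least 100 fragments in the flower library and a flower level of at least 90% of the level summed over all 4 libraries. A unigene is a transcript sequence assembled from the reads without a genome, and its level is given as TPM, a share of the library scaled to a fixed sum after correction for sequence length. The rule kept 178 unigenes of the 128183 in the assembly. They came from 150 Trinity genes, the groups of sequences that the assembler treats as isoforms of one gene, and from 146 larger read clusters called components. Of the 10393 unigenes that met the length and fragment minimum in flower, 1.71% were flower-dominant. Since the flower level chose the members, their height in flower is a description and not a result.

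The libraries were made from flower, bud, leaf and root of untreated 3-year-old plants of the same plant material, harvested in one season from natural growing conditions. There was 1 library for each tissue, so no difference between tissues had a replicate check, and each interval below is an exact 95% interval that covers counting error only. The sources used here do not say how many plants or which floral organs went into the flower RNA. Fewer cells of a type and less RNA per cell cannot be told apart in such bulk samples.

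The flower library was the deepest, at 7057551 fragments, and the root library the shallowest, at 4811266. The labels were set beside marker unigenes. The 7 unigenes named as FRUITFULL-like MADS-box genes, a family of floral regulators, were all detected in flower, but their summed level was 53.9 TPM there against 267 TPM in leaf, and 0 of the 7 were highest in flower. The 2 photosystem II unigenes found by name were highest in leaf, where they summed to 15.7 TPM. The 21 unigenes of the methylerythritol phosphate pathway, also set as leaf markers, summed to 947 TPM in leaf and 766 TPM in flower. They had 254 TPM in bud and 418 TPM in root, and 10 of the 21 were highest in leaf. They hardly set leaf apart from flower. The 7 unigenes of the ent-kaurene branch (copalyl diphosphate and kaurene synthases) summed to 9.18 TPM in flower and 40.3 TPM in bud. They had 53.4 TPM in leaf and 57.6 TPM in root, so their sum hardly set root apart from leaf. Of the 7, 3 were highest in root, 3 in leaf and 1 in bud, and single unigenes differed sharply in both directions. TR44693|c0_g1_i2 had 24.9 TPM in root and 0 TPM in leaf, and TR48303|c0_g1_i1 had 0 TPM in root and 24.0 TPM in leaf. The summed level of 45 unigenes for proteins used by every cell ranged from 4907 TPM in leaf to 6122 TPM in root. Not all of the 45 were even, and TR41353|c3_g2_i1 had 204 TPM in bud and 0.45 TPM in leaf. Petal, stamen and carpel identity genes were not among the names used here, so the flower label was not checked against them.

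Flowers combine scent, pigment, nectar and reproductive organs. Floral scent is often built from monoterpenes, small volatiles that terpene synthases make in plastids from a precursor of the methylerythritol phosphate (MEP) pathway. Petal pigments are commonly decorated by acyltransferases and methyltransferases, and sugars are moved to nectaries and pollen by transporters such as those of the SWEET family.

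Names resting on matches to other species were at hand for 12 of the 178 members, from tables that were held only in part. The other 166 carry an identifier alone. The named members covered a monoterpene synthase, acyltransferase-type carboxypeptidases, sugar transporters, cytochromes P450, an ABC transporter, ascorbate oxidases and unigenes of alpha-linolenic acid metabolism.

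The named terpene synthase was TR47604|c1_g4_i5, listed as myrcene, chloroplastic-like and read here as myrcene synthase-like. Myrcene synthases convert geranyl diphosphate into the scent monoterpene myrcene. It had 1003 flower, 1 bud, 0 leaf and 2 root fragments. Its level was 248 TPM in flower (95% interval 232 to 263) and at most 0.82 TPM in the other libraries. Flower was far above the rest. The ratio to root, the next library by TPM, was 301 (interval 83.1 to 2490), and too few fragments lay outside flower to order the other libraries.

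Its read cluster, TR47604|c1, held 4 members, more than any other component, and is described here after its values were seen. The other 3 members were TR47604|c1_g6_i1, TR47604|c1_g5_i2 and TR47604|c1_g5_i4, which are not named themselves. TR47604|c1_g6_i1 had 251 TPM in flower and 2.30 TPM in root, TR47604|c1_g5_i2 had 190 TPM and 1.12 TPM, and TR47604|c1_g5_i4 had 96.5 TPM and 0.96 TPM. Root had 2 to 9 fragments and bud 1 to 9 in these 4 members, too few to order the libraries outside flower. An isoform too short for the rule, TR47604|c1_g5_i9 of 370 bases, carried the myrcene synthase-like name and had a flower share of 98.1%. Over its 10 unigenes the component summed to 2155 TPM in flower, 3.16 TPM in bud, 0.86 TPM in leaf and 12.2 TPM in root. The sequences of one component can share reads, so they are not independent of each other.

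Further monoterpene-related unigenes lay in 2 other Trinity genes with members. TR40366|c1_g3 has isoforms named myrcene synthase-like, and its 1 member, TR40366|c1_g3_i14, had 108 flower, 0 bud, 1 leaf and 0 root fragments. The named isoforms TR40366|c1_g3_i5 and TR40366|c1_g3_i6 had fewer than 100 flower fragments, with shares of 85.5% and 88.3%. Summed over its 9 isoforms this gene had a flower share of 76.6%, and its component had 64.6% over 18 unigenes. TR42751|c1_g1 has a 226-base isoform assigned to monoterpenoid biosynthesis and 2 members, TR42751|c1_g1_i1 at 14.6 TPM in flower and TR42751|c1_g1_i7 at 13.6 TPM. Another isoform, TR42751|c1_g1_i2, was nearly level between flower at 13.5 TPM and bud at 11.9 TPM.

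The list of terpene synthase unigenes held 22 sequences, of which 5 met the length and fragment minimum and 1 was a member. The median flower share of those 5 was 21.96%, beside 26.3% over all unigenes tested. The other 4 were isoforms of 1 santalene synthase gene, an enzyme type that makes sesquiterpenes, and each had more fragments in bud than in flower. TR45580|c1_g3_i1, for example, had 121 flower, 247 bud, 58 leaf and 11 root fragments. Of all 22 unigenes of the list, 12 were highest in flower and 7 in bud, while leaf led in 2 and root in 1.

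The MEP pathway, which supplies the monoterpene precursor in plastids, had 0 members among its 21 unigenes. Of the 10 that were tested, the highest flower share was 81.2%, for TR43248|c0_g1_i2, named DXS10 after 1-deoxyxylulose phosphate synthase, the entry enzyme. Its level was 163 TPM in flower, 11.5 TPM in bud, 8.47 TPM in leaf and 17.8 TPM in root. Of 17 mevalonate pathway unigenes 9 were tested, with 0 members and a highest share of 31.2% among the 9. Of 14 unigenes of the diterpene steps 5 were tested, with 0 members and a highest share of 40.1% among the 5. With so few tested, a count of 0 in these lists says little beside the 1.71% over all tested.

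The carboxypeptidase gene TR41300|c3_g1 supplied 3 members, all of its isoforms. Serine carboxypeptidase-like proteins of this orthologous group are related to enzymes that acylate anthocyanins from acylglucose donors. TR41300|c3_g1_i1 had 2887 fragments in flower and 6 in bud, TR41300|c3_g1_i2 had 3359 and 12, and TR41300|c3_g1_i4 had 2858 and 15. In leaf and root these isoforms had 0 or 1 fragments. Flower exceeded bud by a ratio of 442 (interval 203 to 1206) for the first, 258 (147 to 499) for the second and 175 (106 to 314) for the third. The group has another gene, TR40664|c2_g3, whose isoforms were highest in leaf, with 152 and 155 leaf fragments against 54 and 37 in flower.

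The SWEET15-like gene TR36419|c0_g1 also had every isoform among the members. SWEET proteins let sugars cross membranes in both directions. TR36419|c0_g1_i1 had 123 TPM in flower and 9.02 TPM in bud, and TR36419|c0_g1_i2 had 78.9 TPM and 5.38 TPM. Both had 0 fragments in leaf and root. The ratio of flower to bud was 13.6 (interval 10.99 to 17.00) and 14.7 (11.3 to 19.4), so these members kept a measurable bud level. Of the 8 unigenes of this sugar transporter group, only these 2 met the minimum, and TR24059|c0_g1_i1, with a share of 95.5%, had 37 flower fragments.

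A pair of isoforms of a cytochrome P450 82A3-like gene, TR40144|c3_g1, were members. Cytochromes P450 of the CYP82 family oxidize diverse specialized metabolites. TR40144|c3_g1_i2 had 1951 flower, 32 bud, 73 leaf and 0 root fragments, and TR40144|c3_g1_i5 had 1633, 72, 53 and 0. Leaf came second for both by TPM, at ratios of 15.4 (interval 12.2 to 19.7) and 17.8 (13.5 to 23.8). For TR40144|c3_g1_i5 leaf, at 5.84 TPM, and bud, at 4.97 TPM, were too close to order. Isoforms TR40144|c3_g1_i1 and TR40144|c3_g1_i8 fell below the threshold at 87.8% and 87.6%. The isoform TR40144|c3_g1_i4, under the length minimum, had 136 flower and 61 leaf fragments, a share of 53.5%, and made up 53.1% of the gene in leaf. Summed over its 5 isoforms the gene had a flower share of 84.3%. Other unigenes named P450 82A3-like were low in flower, such as TR41697|c0_g1_i1 with 8 fragments in flower and 288 in root.

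The remaining named members were low in level. The ABC transporter TR41062|c1_g1_i4, of a family that moves compounds across membranes using ATP, had 15.2 TPM in flower and 0.28 TPM in bud. Summed over its 4 isoforms, however, its gene had 32.2 TPM in flower and 6.14 TPM in bud, a flower share of 83.4%. TR44703|c0_g2_i2 and TR44703|c0_g2_i6, assigned to the alpha-linolenic acid pathway that leads to jasmonates, had 121 and 119 fragments in flower and 0 in the other libraries. TR34481|c0_g1_i1 and TR35408|c0_g1_i1 were named as an L-ascorbate oxidase homolog and L-ascorbate oxidase, a cell wall enzyme that oxidizes vitamin C. They had 108 and 102 fragments in flower, close to the minimum of 100. Outside flower the first had 1 fragment, in bud, and the second had 0.

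**Figure D1:**
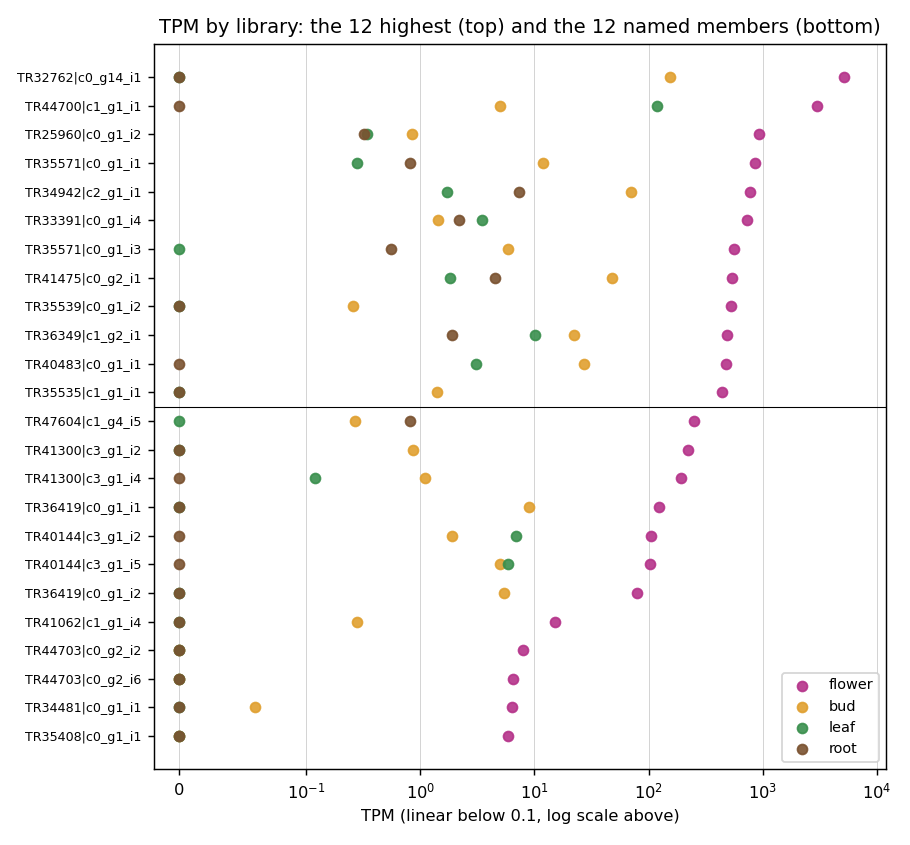
TPM (horizontal, linear below 0.1 and logarithmic above) in each of the 4 libraries for the 12 members with the highest flower level (above the line) and the 12 named members (below it), with points at 0 drawn over each other. Flower is the rightmost point in every row because the rule requires it, and root lies at 0 for most of the named members.

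The 12 members with the highest flower level had no name in the tables used. They held 47.8% of the TPM of all members, and the first pair alone held 26.9%. TR32762|c0_g14_i1, of 578 bases, had 21666 flower, 601 bud, 0 leaf and 0 root fragments, or 5099 TPM in flower (interval 5031 to 5167) and 154 TPM in bud. This was also the highest bud level of any member. It is the only isoform of its Trinity gene, but its component, TR32762|c0, holds 7 unigenes that summed to 7967 TPM in flower, 5486 TPM in bud, 10045 TPM in leaf and 42.7 TPM in root. The component was thus highest in leaf, with 33.8% of its TPM in flower, and how reads were divided within it was not tested. TR44700|c1_g1_i1, of 698 bases, had 16327 flower, 25 bud, 374 leaf and 0 root fragments. Its leaf level of 118 TPM was the highest of any member, although its flower level was 25.2 times higher (interval 22.8 to 28.0).

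The next members showed how different the remainder outside flower could be at a like flower level. TR25960|c0_g1_i2 had 923 TPM in flower and at most 0.84 TPM elsewhere. TR35539|c0_g1_i2 had 523 TPM in flower, from 4421 fragments, against 2 fragments in bud and 0 in leaf and root. TR34942|c2_g1_i1 had 773 TPM in flower but 70.7 TPM in bud, and TR41475|c0_g2_i1 had 538 TPM and 48.2 TPM. The last pair lay near the threshold, with flower shares of 90.6% and 90.8%, whereas TR25960|c0_g1_i2 reached 99.8% and TR35539|c0_g1_i2 99.95%. Both isoforms of TR35571|c0_g1 were in this group, at 849 and 558 TPM in flower and 11.8 and 5.88 TPM in bud. The other 4 of the 12 were TR33391|c0_g1_i4, TR36349|c1_g2_i1, TR40483|c0_g1_i1 and TR35535|c1_g1_i1, at 731, 487, 474 and 436 TPM in flower.

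**Figure D2:**
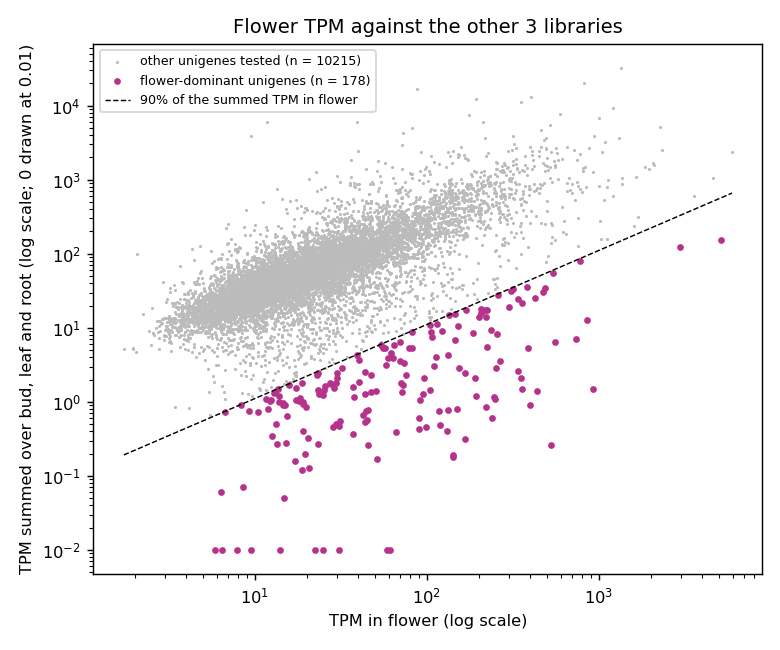
TPM in flower (horizontal) against TPM summed over bud, leaf and root (vertical), both on log scales, for the 10393 unigenes tested, with the 178 flower-dominant ones coloured and the 90% threshold dashed. Members with 0 outside flower are drawn at 0.01, and TR32762|c0_g14_i1 and TR44700|c1_g1_i1 are the 2 coloured points farthest to the right.

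As a group the members summed to 30045 TPM in flower, or 3.00% of the library, and to 782 TPM in bud, 302 TPM in leaf and 97.4 TPM in root. Counted as fragments they made up 3.50% of the flower library (interval 3.49% to 3.52%). The flower level of a member ranged from 5.84 to 5099 TPM with a median of 59.1 TPM, beside a median of 18.8 TPM over all unigenes tested. The median member had 533 flower fragments, and 44 members had fewer than 200. The flower share had a median of 96.0%, and 101 members reached 95% and 44 reached 99%. In 90 members every other library was below 1 TPM, and in 23 some other library reached 10 TPM.

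The rule used the sum of bud, leaf and root but not their order, so the order could be compared with that of all unigenes tested. Among the 168 members with any fragment outside flower, bud was highest of the 3 in 111 (66.1%), leaf in 39 (23.2%) and root in 18 (10.7%). Over all tested unigenes bud was highest in 39.4%, leaf in 34.7% and root in 26%. The ratio of the highest to the next library excluded 1 in 65 members, 51 for bud, 11 for leaf and 3 for root, which are 30.4%, 6.55% and 1.79% of the 168. Over all tested unigenes these shares were 26.6%, 23.7% and 19.1%. By highest TPM, bud therefore led more often among the members, and root less often. The ratio excluded 1 in 7211 of 10383 tested unigenes but in only 65 of 168 members, so its shares, such as 30.4% beside 26.6%, are not alike. Among the unigenes that it ordered, bud led in 51 of 65 members and in 2766 of 7211 tested. Most members had too few fragments outside flower to order those libraries, which by itself lowers their shares of the 168 for bud as well as for leaf and root. No test of the difference in order was made, since each tissue had 1 library and isoforms share reads.

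Bud led more often than in all tested unigenes at each level of flower TPM. It was highest in 75.7% of members below 20 TPM in flower, in 64.1% of those from 20 to 100 TPM and in 62.7% of those above, beside 40.2%, 38.7% and 36.7% of all tested unigenes in the same ranges. The bud library was also deeper than leaf and root, at 6614173 fragments, and its part in the order was not tested. With bud left out of the sum, 489 unigenes would have met the rule in place of 178, and 293 with leaf left out.

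**Figure D3:**
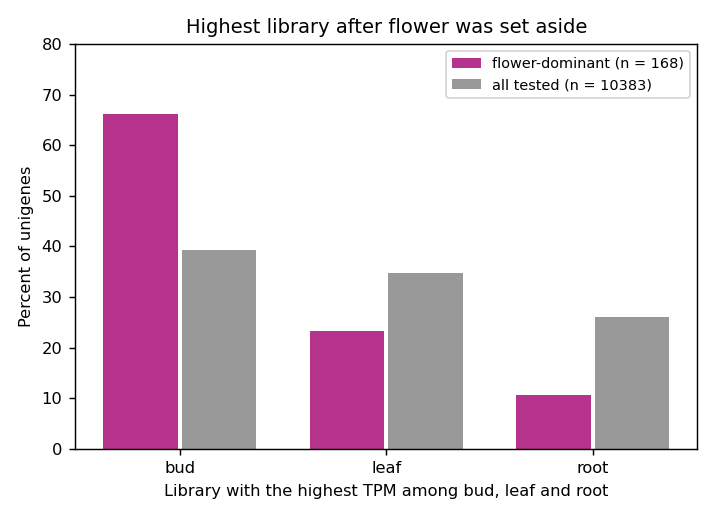
Percent of unigenes (vertical) in which bud, leaf or root had the highest TPM of the 3, for the 168 flower-dominant unigenes with fragments outside flower and for the 10383 such unigenes tested. Bud leads in 66.1% of the former and 39.4% of the latter, and root in 10.7% and 26%.

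Members with leaf or root second formed smaller groups. After TR44700|c1_g1_i1, the member with the highest leaf level was TR38739|c1_g1_i1, at 21.2 TPM, with 5880 flower, 172 bud, 232 leaf and 7 root fragments. The highest root level of any member was that of TR36891|c1_g1_i1, with 2424 flower, 30 bud, 4 leaf and 90 root fragments. Its root level was 12.7 TPM, and flower was 16.2 times higher (interval 13.1 to 20.3). TR43578|c2_g1_i1 had a like pattern, with 1692, 7, 6 and 62 fragments in the same order. Both members lacked a name, and their flower shares were 92.8% and 93.3%.

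Fragments were absent from root in 94 members (52.8%), from leaf in 74 (41.6%) and from bud in 27 (15.2%). The rule admits only unigenes that are low outside flower, so nothing is read from how these shares compare with those of other unigenes. A total of 10 members had 0 fragments in all 3 libraries, and these were also the only such unigenes among those tested (0.0962%), since a unigene with no fragment elsewhere always meets the share. TR34542|c0_g4_i1 had the most flower fragments of the 10, at 732, or 58.7 TPM. A count of 0 allows up to 3 fragments, here up to 0.26 TPM in bud and 0.42 TPM in leaf, so its flower level was at least 141 times higher. The next were TR27163|c0_g1_i1 with 236 fragments, TR38156|c0_g1_i1 with 196, TR35569|c0_g1_i1 with 161 and TR33359|c0_g2_i1 with 150. Their flower levels were at least 45.5, 37.7, 31.0 and 28.8 times those that 3 fragments allow. At this depth expression outside flower was not detectable, which does not show that it was absent.

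The threshold cut through a continuous range. Just inside it lay TR30580|c0_g1_i2, TR36286|c1_g1_i2 and TR42751|c1_g1_i7, with shares of 90.03%, 90.04% and 90.06%. Just outside lay TR37736|c2_g1_i3, TR38253|c2_g2_i1 and TR35459|c13_g1_i4, with 89.98%, 89.91% and 89.81%. Counting error spans the threshold on both sides, and 126 of the 178 members had a lower limit of the share at or above 90%.

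Most Trinity genes of the members had a single isoform in the assembly, 92 of 150. The other 58 had up to 9 isoforms and held 86 members. In 24 genes more than 1 isoform was a member, and 4 genes had 3 members. Besides TR41300|c3_g1 and TR44703|c0_g2 these were TR35459|c12_g1, whose members had 244, 166 and 66.4 TPM in flower, and TR44895|c3_g2, whose members had 200, 152 and 134 TPM. The isoforms of TR44895|c3_g2 had similar bud levels, from 8.88 to 11.3 TPM, and those of TR35459|c12_g1 had at most 0.87 TPM there.

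The 58 genes also held 89 isoforms that were not members. Of these, 41 were too short, 32 had too few flower fragments and 16 missed only the share, at 51.2% to 89.0%. The median flower share of the 89 was 87.5%, and 36 had at least 90%. An isoform that met the minimum and reached 90% would be a member, so the 36 were all too short or low in fragments. They can share reads with the members, and no share over comparable unigenes stands beside them. Nothing is therefore read from the 36. Of the 89, 12 had a share under 50%, so dominance in flower did not extend to all isoforms of these genes.

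Summed over its isoforms, the Trinity gene kept at least 90% in flower in 39 of the 58 genes with several isoforms. It fell below in 19. The 92 genes with a single isoform kept it by the rule itself, so they add nothing to this count. The lowest sums, singled out after they were seen, were those of TR39723|c0_g2 at 57.9% and TR37294|c0_g1 at 58.4%. In TR37294|c0_g1 the member TR37294|c0_g1_i4 had 131 fragments in flower and 0 elsewhere, while isoform TR37294|c0_g1_i2 had 12 flower, 16 bud, 24 leaf and 13 root fragments. The member made up 89.4% of the gene in flower and 0% in the other libraries. In TR39723|c0_g2 the member TR39723|c0_g2_i6 took 31.8% of the gene in flower and 3.38% in leaf, where TR39723|c0_g2_i1 took 69.7%. Such genes were detected in every tissue, with isoforms in different proportions. How fragments that match several isoforms were divided can change these proportions.

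**Figure D4:**
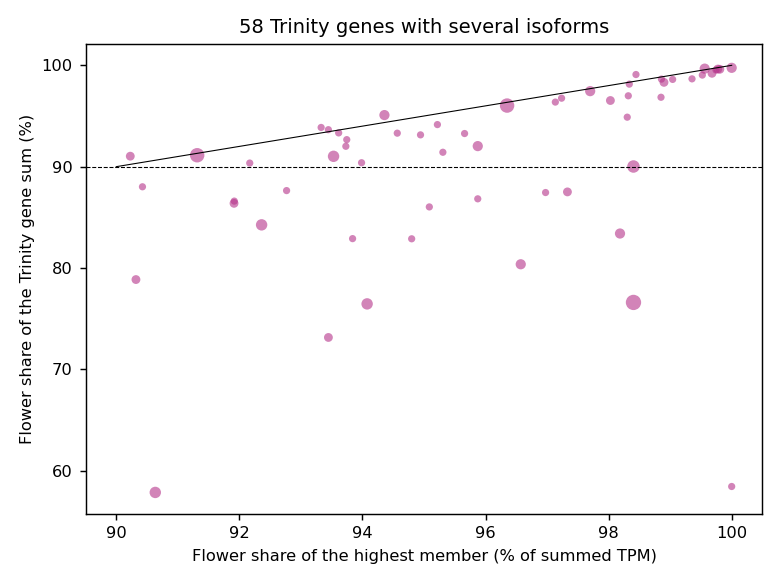
Flower share of the Trinity gene summed over isoforms (vertical, percent of TPM) against that of its highest member (horizontal), for the 58 member genes with several isoforms, with point size growing with the number of isoforms and the solid line marking equality. The 19 genes below the dashed 90% line include TR39723|c0_g2 at 57.9% and TR37294|c0_g1 at 58.4%.

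Members were shorter than the unigenes they were drawn from. Their median length was 1186 bases (quartiles 760 and 1661), beside 1536 bases (1063 and 2132) over all tested. The shortest member was TR47604|c1_g6_i1 with 518 bases, and the longest was TR48069|c0_g2_i2 with 4530 bases. The sets chosen by the same rule in the other tissues had medians of 1190 bases in bud, 1201 in leaf and 971 in root. The flower median was thus near those of the bud and leaf sets. No median over all unigenes tested in bud, leaf or root stands beside them.

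The other lists had few unigenes that met the length and fragment minimum, so a count of 0 members says little beside the 1.71% over all tested. The 12 O-methyltransferases summed to 130 TPM in flower and 5374 TPM in root, and 7 were highest in root and 2 in flower. Only TR32830|c0_g3_i1 met the minimum. It was named orcinol O-methyltransferase, after enzymes that make rose scent phenolics, and had 84.3 TPM in flower and 16.1 TPM in bud, with a share of 81.6%. BAHD acyltransferases, which decorate specialized metabolites, had 3 tested unigenes of 4, with 0 members and a highest share of 68.0%. Phenylalanine ammonia-lyase, the entry enzyme of the phenylpropanoids, had 2 tested of 3, with 0 members and a highest share of 19.5%. Of the cell wall enzymes 1 of 34 was tested, of the GDSL esterase lipases 1 of 10, and of the sulfate and nitrate transporters 4 of 13. None of these was a member, and the highest shares among the tested were 12.1%, 58.9% and 49.7%. Of 45 every-cell unigenes 33 were tested and 0 were members, and the highest share, 66.2%, was that of the alpha tubulin TR42031|c2_g1_i1, with 286 TPM in flower and 34.6 to 58.4 TPM elsewhere.

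Some unigenes of the lists met the share but were too short for the rule. TR46350|c1_g1_i1, a 317-base unigene assigned to carotenoid biosynthesis, had 166 fragments in flower and 0 in the other libraries. The other 2 of the 3 carotenoid unigenes had 0 fragments in flower, and 3 and 1 in root. The monoterpenoid unigenes TR27703|c0_g1_i1 and TR47604|c1_g3_i3, of 275 and 293 bases, had 75 and 217 fragments in flower and 0 elsewhere. The 30 unigenes of pectin and glucuronate enzymes and the 45 of phenylpropanoid biosynthesis that came from pathway assignments held no unigene meeting the minimum.

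**Figure D5:**
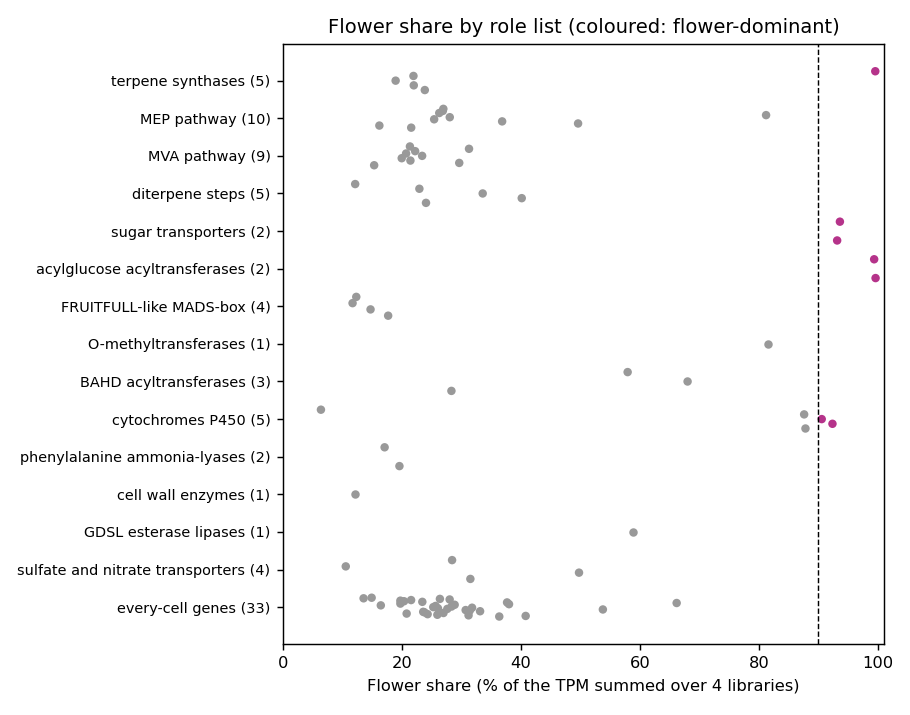
Flower share (horizontal, percent of the TPM summed over the 4 libraries) of each unigene that met the length and fragment minimum, by role list, with the number of such unigenes in brackets, members coloured and the 90% threshold dashed. Members occur in 4 lists, those of terpene synthases, sugar transporters, acylglucose acyltransferases and cytochromes P450.

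By the mirrored rule 244 unigenes were bud-dominant (2.37% of those tested in bud), 160 leaf-dominant (2.21%) and 126 root-dominant (2.19%), so flower had the lowest share of dominant unigenes. The members held 3.00% of the flower TPM, against 6.02% for the bud set in bud, 3.50% for the leaf set in leaf and 12.7% for the root set in root. A count of 0 in all other libraries was found in 10 of the 178 flower-dominant unigenes (5.62%), 74 of 244 in bud (30.3%), 0 of 160 in leaf and 8 of 126 in root (6.35%). Flower was second in 114 of the 170 bud-dominant unigenes with fragments elsewhere. In the leaf-dominant set bud was second in 93 of 160 and flower in 49. In the root-dominant set bud was second in 49 of 118 and flower in 36. Bud was thus most often second in the leaf and root sets as well as in flower. No share over all tested unigenes stands beside the bud, leaf and root counts, so no pairing of flower with bud is read from them. The libraries differed in depth and in the number of unigenes tested, and the part of these in the counts was not tested.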

How the data were processed

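The authors trimmed paired reads with Trimmomatic, assembled all tissues together with Trinity, removed redundant sequences, aligned the reads with Bowtie 2 and estimated abundance with RSEM. The deposited expected counts are fragments assigned to a unigene, without normalization, and were whole numbers. The deposited TPM values are per effective length and scaled to a fixed library sum, and the deposited FPKM values are per kilobase and library total. Within each Trinity gene, the deposited isoform percent gives how much each isoform contributes. FPKM in the authors' joint table equalled the library tables within 0.01 for all 128183 unigenes.

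The members were selected on deposited values, and members and lists were chosen with earlier results of these data known. Ratio intervals were conditional binomial and level intervals Poisson, both exact at 95%; where no fragment was counted, up to 3 were allowed for. PCR copies and plant-to-plant variation are not covered. The share interval weighted the other libraries by their observed fragments. The unigenes singled out by rule were the 12 highest in flower, every member with an informative name and 3 on each side of the threshold. To these were added 5 with 0 fragments elsewhere and the highest in each other library. The members of the Trinity genes holding most and the highest flower share of each list were added too. Others were chosen after their values were seen. Orthogroup, pathway and enzyme names came from the paper's tables, read for 3150 unigenes (2.46%). No sequence was analysed here.

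Alternatives used other thresholds, FPKM, edgeR TMM factors, DESeq2 size factors, Trinity gene sums and thinning to the smallest library. The procedures were tested on simulated data. Scaling factors came from DESeq2 1.42.0 and edgeR 4.0.16 under R 4.3.3. All else was computed in Python 3.11.15 (pandas 2.3.3, scipy 1.17.1, numpy 2.4.6) and drawn in matplotlib 3.10.9.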

Additional observations from a re-analysis of the deposited data

How the results depend on the processing

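No paired analysis was possible because each tissue had 1 library, and no library could be left out of a group for the same reason. The number of flower-dominant unigenes was 178, and it was 323, 101 and 44 at flower shares of at least 80%, 95% and 99%, 103 with a length over 1000 bases, 489 with bud left out of the sum and 293 with leaf left out. It stayed between 126 and 235 under the other 10 alternatives, among them FPKM (190), TMM (173) and DESeq2 size factors (181), which shared 178, 171 and 175 unigenes with the main set. Bud was second in 66.1% of the members with fragments elsewhere, and in 61.3% to 76.9% under the 5 alternatives. For gene sums this was 89 of 132 Trinity genes, and 93 of 121 members where the second library had at least 5 fragments. The members with 0 fragments in bud, leaf and root numbered 10, and 16 and 2 with at least 50 and 200 flower fragments, which changes how many members enter. The share of the flower library was 3.00% by TPM and 3.50% by fragments. The ratio of flower to the second library was also taken for the 33 members singled out by the stated rules that had fragments outside flower. It stayed above 1 under FPKM, TMM and DESeq2 size factors, at 0.73 to 1.33 times the main value. Depth limits the order of bud, leaf and root, since 75 members had under 10 fragments there in all.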
